A study of Rattus norvegicus with 6 samples.

Results

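The immediate early genes described here are the Egr genes Egr1, Egr2 and Egr3, the Nr4a genes Nr4a1, Nr4a2 and Nr4a3, the Ier genes Ier2, Ier3 and Ier5, and Srf, the gene of serum response factor. They were chosen by gene family, and each of the 10 was found by its symbol as 1 row among the 32623 rat genes in the deposited table. Myocardial RNA was sequenced from wild-type male rats in 2 groups of 3. In the sham group the chest was opened under anesthesia and ventilation, and in the ischemia group a ligature was also tied around the left anterior descending coronary artery, with 30 min given as the time point of both groups. Strain and age, the part of the heart that was sampled, and whether a sample came from 1 animal or several were not given in the labels, so p-values measure only the spread between these samples, which may be technical.

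Immediate early genes are transcribed within minutes of a stimulus because the factors that start their transcription are already present in the cell. Kinases of the MAPK cascade phosphorylate Elk-type partners of serum response factor at CArG boxes, the DNA sites to which serum response factor binds, and phosphorylate CREB at cAMP response elements. The Egr proteins are zinc finger transcription factors and the Nr4a proteins are orphan nuclear receptors, so both carry the signal to later genes. In heart and vessel wall such genes are known to respond to stretch, hormones, hypoxia and injury. Blood leukocytes also express them when activated.

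Read totals ranged from 68529126 to 79591989 counts per sample, and none of the 10 genes had 0 counts in any sample. Several libraries stood apart. Counts on the 48 Y-linked genes came to 161 in sham replicate 1 and to between 3218 and 8970 elsewhere, with male rats given in the labels. FPKM values are fragments counted per length of gene and per size of library. Summed over 5 atrial marker genes, FPKM was 215.5 in sham replicate 2 but 48344 and 39345 in the other sham samples, and between 1279 and 9610 in ischemia. Summed endothelial markers (5 genes) were 175.4 to 181.6 in sham and 151.2 to 182.9 in ischemia, and fibroblast markers (5 genes) 407.6 to 1163 and 209.3 to 508.7. Cardiomyocyte markers were abundant in all samples, with a sum over 7 genes of 14768 to 23191 in sham and 6152 to 15342 in ischemia. The 12 neutrophil and monocyte markers summed to between 113.3 and 198.3 in sham and to 1287, 8662 and 2033 in ischemia replicates 1 to 3, and 10 of the 12 were higher in ischemia at an edgeR adjusted p under 0.05, as were 5.18% of all tested genes. Among the 12, S100a8 and S100a9 were present in every sample. Mpo went the other way. Its counts, by replicate in order, were 0, 119 and 808 for sham against 0, 4 and 0 under ischemia. Its log2 fold change of ischemia over sham was -7.82 ± 2.53 (SE). It did not pass in edgeR (adjusted p 0.0993), and its groups overlapped. The part of these differences between libraries in the values of the 10 genes was not tested.

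The promoters are shown because sites for the factors named above, and for the Egr and Nr4a proteins themselves, can be read in them. RefSeq sequence of the 250 bases before the transcription start was matched by symbol for 7 of the 10 genes, in the GRCr8 build, whose coordinates differ from those of the deposited table. It was not matched for Egr3, Nr4a3 and Ier3. Both strands were searched for the CArG box, the full cAMP response element TGACGTCA, its core TGACG (also counted within the full element), the Egr site GCGGGGGCG or GCGTGGGCG, the Nr4a monomer site NBRE (AAAGGTCA) and the TATA box TATAAA. The promoters of Egr2, Ier2, Nr4a1 and Srf are printed here, 5′ to 3′ on the strand of the gene, with every match in capitals, as examples of a CArG box, a full cAMP response element, repeated cores and a pair of CArG boxes.
Egr2 (chr20:21054442-21054691, minus strand): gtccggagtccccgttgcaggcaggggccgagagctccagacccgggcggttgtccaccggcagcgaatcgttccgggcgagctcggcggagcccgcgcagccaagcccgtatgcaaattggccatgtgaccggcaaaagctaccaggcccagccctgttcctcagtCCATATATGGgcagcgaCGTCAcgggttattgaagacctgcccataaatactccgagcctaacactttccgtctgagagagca
Ier2 (chr19:40399123-40399372, plus strand): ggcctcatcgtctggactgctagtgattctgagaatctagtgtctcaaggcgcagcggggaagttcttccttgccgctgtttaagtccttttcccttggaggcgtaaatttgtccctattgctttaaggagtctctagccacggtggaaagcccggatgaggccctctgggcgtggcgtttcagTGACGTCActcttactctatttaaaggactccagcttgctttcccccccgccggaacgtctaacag
Nr4a1 (chr7:134259888-134260137, plus strand): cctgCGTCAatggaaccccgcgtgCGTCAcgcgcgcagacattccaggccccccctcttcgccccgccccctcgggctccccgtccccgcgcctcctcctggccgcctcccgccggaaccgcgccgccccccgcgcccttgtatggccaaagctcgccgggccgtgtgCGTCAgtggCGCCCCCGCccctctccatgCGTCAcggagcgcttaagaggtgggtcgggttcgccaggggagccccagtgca
Srf (chr9:21923826-21924075, plus strand): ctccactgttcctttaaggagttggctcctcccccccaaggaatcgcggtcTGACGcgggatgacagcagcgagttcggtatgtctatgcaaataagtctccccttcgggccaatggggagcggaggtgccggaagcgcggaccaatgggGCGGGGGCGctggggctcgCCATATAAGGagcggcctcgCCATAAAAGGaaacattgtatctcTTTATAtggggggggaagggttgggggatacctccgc

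A CArG box was found in the Egr1, Egr2 and Srf promoters, against 1.5% of all 33469 promoters. Egr1 and Srf held 2 boxes each, and 2 or more were found in 0.0209% of all promoters. The Egr2 box lay 83 to 74 bases before the start, and the same bases CCATATATGG lay 83 to 74 bases before the start of Egr1. A core TGACG on the opposite strand followed at 66 to 62 bases in both genes. Ier2 held the full cAMP response element at 66 to 59 bases, which 1.59% of promoters held. RefSeq places Ier2 on the plus strand and the table on the minus strand, and whether the rows describe the same copy was not tested. Nr4a1 held 4 cores, and at least 1 core was found in 6 of the 7 promoters against 18.2% of all. Egr sites were found in Nr4a1 and Srf (2.85% of all promoters), and no member held an NBRE in this window (1.24%). Ier5 held a TATA box, and Srf held its letters on the opposite strand only (12.9% had a match on either strand). These matches describe letters and do not show binding.

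Differences between ischemia and sham were then examined. Of the 10 genes, 9 had a higher mean FPKM in ischemia and Srf had a lower mean. With edgeR's quasi-likelihood test of the counts and Benjamini-Hochberg adjustment over 13964 tested genes, 2 of the 10, Egr2 and Ier3, were higher at an adjusted p under 0.05, where 5.18% of all tested genes were higher. None of the 10 was lower in edgeR, where 1.53% of all genes were, or in DESeq2, where 12.5% were, and none passed as lower in the other alternatives. At an unadjusted p under 0.05, 6 of the 10 were higher and 0 lower, where 18.2% and 14.2% of all tested genes were. All ischemia samples lay above all sham samples for 5 of the 10 (Egr2, Egr3, Nr4a3, Ier2 and Ier3), against 22% of all genes, and below them for Srf, against 19.1% of all genes. Egr3 and Nr4a3, counted both here and among the 6, reached the expression limit for testing only through their ischemia samples, so these counts are descriptions and not support. The median log2 fold change was 1.38 over the 10 genes and -0.0015 over all tested genes, and it was 0.85 over the 10 without ischemia replicate 2. In bulk tissue, fewer cells of a type and less RNA per cell cannot be told apart. The edgeR calls of both genes were lost, as were those of the whole table, when sham replicate 1, sham replicate 2, sham replicate 3 or ischemia replicate 3 was left out. Without ischemia replicate 2 only Ier3 passed as higher, where 3.31% of all genes did. Without ischemia replicate 1, Egr2, Egr3, Ier2, Ier3 and Ier5 passed, where 10.7% of all genes did. With DESeq2, Egr3 (adjusted p 0.00556), Nr4a3 (0.0474), Ier2 (0.00128) and Ier5 (0.0447) passed beside Egr2 and Ier3, where 14.8% of all genes were higher.

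**Figure D1:**
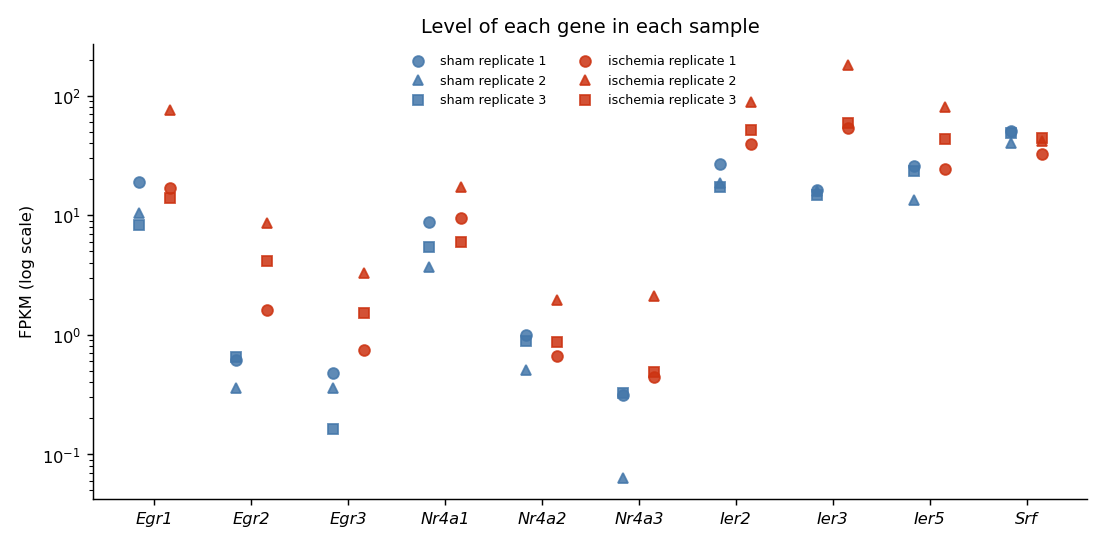
FPKM on a log axis of each of the 10 genes in each of the 6 samples, sham in blue and ischemia in red, with the replicate number given by the marker shape. Ischemia replicate 2 (triangles) is the highest sample for 9 of the 10 genes, and the groups are separated for Egr2, Egr3, Nr4a3, Ier2 and Ier3.

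Of the Egr genes, Egr2 rose 8.22-fold in ischemia. Egr2, at chr20:22454463-22459025 (ENSRNOG00000000640, minus strand) in the coordinates of the table, encodes a zinc finger factor known from Schwann cell myelination and lymphocyte activation. Its FPKM was 0.62, 0.36 and 0.65 in the sham samples (replicates 1, 2 and 3) against 1.61, 8.55 and 4.15 under ischemia. Every ischemia sample was above every sham sample, and the lowest ischemia sample was 2.58 times the highest sham sample on scaled CPM (counts scaled to the size of each library). The fitted change was 3.04 ± 0.59 on the log2 scale (SE, n = 3 per group), at an adjusted p of 0.0425 in edgeR and a two-sided exact permutation p of 0.1, the smallest that 3 samples against 3 allow. Without sham replicate 1, the sample with few Y-linked reads, the change was 3.11 (edgeR adjusted p 0.162), and without ischemia replicate 2 it was 2.40 (0.0572).

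Egr3, a relative of Egr2 known from muscle spindle development and T cells, had the next largest difference among the Egr genes. It lies at chr15:51756736-51760722 (ENSRNOG00000017828, plus strand). Its FPKM was 0.48, 0.36 and 0.16 in sham, against 0.75, 3.31 and 1.53 under ischemia. The groups did not overlap, but the log2 fold change of 2.32 ± 0.66 (SE) did not pass with an edgeR adjusted p of 0.0787. It was 1.70 without ischemia replicate 2 (edgeR adjusted p 0.157). The mean sham level was below the limit of 0.5 FPKM that a gene had to reach over all samples to be tested, so Egr3 entered the test through its ischemia samples.

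Egr1, the most abundant Egr gene and a regulator of tissue factor, adhesion molecule and cytokine genes, behaved less uniformly. It lies at chr18:27657628-27661429 (ENSRNOG00000019422, plus strand). FPKM was 19.1, 10.5 and 8.27 in sham against 17.1, 75.4 and 14.1 in ischemia. Ischemia replicates 1 and 3 lay within the range of sham, and only ischemia replicate 2 lay above it. The fitted change was 1.35 ± 0.67 on the log2 scale (SE), at an adjusted p of 0.209 in edgeR, and its exact permutation p was 0.3. It was 0.27 without ischemia replicate 2 (edgeR adjusted p 0.677).

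The Nr4a genes, whose receptors bind DNA without a known hormone ligand, gave no call in edgeR. Nr4a1 (Nur77), at chr7:142905758-142920216 (ENSRNOG00000007607, plus strand), acts in metabolism and in the death and activation of lymphocytes. Its FPKM was 8.85, 3.72 and 5.40 in sham, against 9.53, 17.4 and 6.02 under ischemia. The samples of the groups overlapped, and the fitted change was 0.79 ± 0.41 on the log2 scale (SE), at an adjusted p of 0.230 in edgeR. It was 0.36 without ischemia replicate 2.

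Nr4a2 (Nurr1), at chr3:43111240-43119159 (ENSRNOG00000005600, minus strand), is best known from dopamine neurons. Its FPKM was 0.99, 0.51 and 0.89 in sham, against 0.67, 1.96 and 0.87 under ischemia. Ischemia replicates 1 and 3 again lay within the sham range. The fitted change was 0.45 ± 0.45 on the log2 scale (SE), at an adjusted p of 0.503 in edgeR, and it turned to -0.062 without ischemia replicate 2.

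Nr4a3 (Nor1), at chr5:63781801-63821637 (ENSRNOG00000005964, plus strand), is known from vascular smooth muscle growth and as a close relative of Nr4a1. Its FPKM was 0.32, 0.063 and 0.32 in sham, against 0.45, 2.11 and 0.49 under ischemia. It was the least expressed member in both groups and rested on 106, 23 and 104 counts in sham and 162, 697 and 152 in ischemia. The groups did not overlap, and the fitted change was 2.04 ± 0.81 on the log2 scale (SE), at an adjusted p of 0.141 in edgeR. Without ischemia replicate 2 it was 1.02 (edgeR adjusted p 0.365). Like Egr3, Nr4a3 had a mean sham level below 0.5 FPKM.

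**Figure D2:**
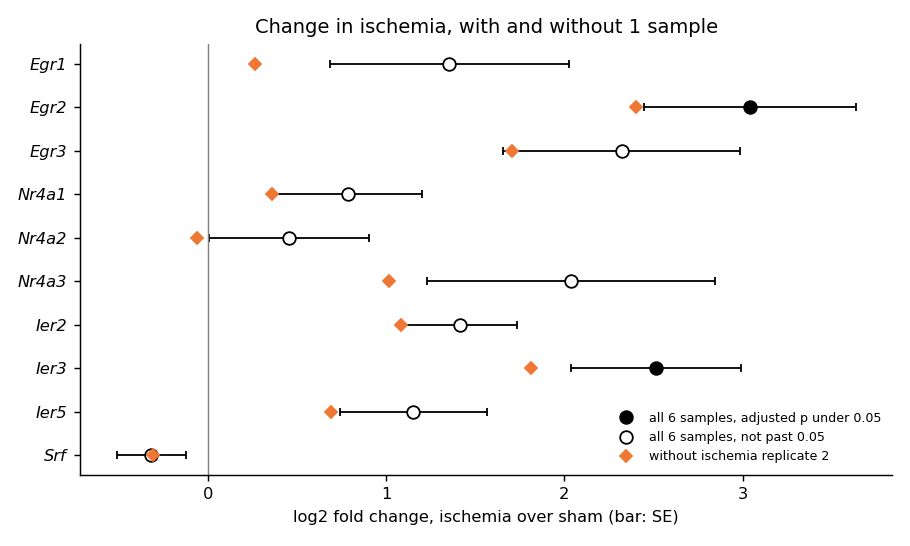
Log2 fold change of ischemia over sham from edgeR for the 10 genes (circles, bars show SE, filled where the adjusted p was under 0.05) and the value without ischemia replicate 2 (diamonds). Only Egr2 and Ier3 are filled, and leaving the sample out lowers 9 of the 10 values, Egr1 from 1.35 to 0.27 and Nr4a2 to below 0.

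Among the Ier genes, Ier3 rose 5.72-fold. Ier3 (also named Iex1), at chr20:3438798-3440002 (ENSRNOG00000000827, minus strand), encodes a small stress-induced protein that affects apoptosis and is a target of NF-κB. Its FPKM was 16.2, 15.9 and 14.8 in sham, against 54.0, 182.0 and 59.6 under ischemia. The sham samples were the most even of the 9 Egr, Nr4a and Ier genes, with a coefficient of variation of 15.7% on scaled CPM, and the lowest ischemia sample was 2.79 times the highest sham sample. The fitted change was 2.52 ± 0.48 on the log2 scale (SE), at an adjusted p of 0.0404 in edgeR. It was 1.81 without ischemia replicate 2 (edgeR adjusted p 0.0244) and 2.49 without sham replicate 1 (0.162).

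Ier2, at chr19:25774143-25775659 (ENSRNOG00000054344, minus strand), encodes a nuclear protein of the early growth factor response and is listed as a pseudogene in the biotype column of the table. Its FPKM was 27.0, 18.6 and 17.2 in sham, against 39.6, 89.1 and 51.4 under ischemia. The groups did not overlap. The log2 fold change of 1.41 ± 0.32 (SE) had an edgeR adjusted p of 0.0510, just outside the threshold. Egr1 had a similar log2 fold change with a standard error of 0.67.

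Ier5, at chr13:72742210-72744303 (ENSRNOG00000059406, minus strand), encodes a protein related in sequence to Ier2 that is known to promote heat shock factor activity. FPKM was 25.7, 13.5 and 23.7 in sham, against 24.4, 80.4 and 43.4 under ischemia. Ischemia replicate 1 lay within the sham range while replicates 2 and 3 lay above it. The fitted change was 1.15 ± 0.41 on the log2 scale (SE), at an adjusted p of 0.119 in edgeR, and 0.69 without ischemia replicate 2.

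Srf, at chr9:16737642-16747225 (ENSRNOG00000018232, plus strand), encodes the factor that binds CArG boxes, and was the only member with a negative log2 fold change. Its FPKM was 50.7, 40.5 and 48.6 in sham, against 32.4, 41.6 and 44.5 under ischemia. These FPKM values overlapped, whereas scaled CPM did not, with 208.2, 205.9 and 196.3 in sham, against 135.7, 159.8 and 194.6 under ischemia. The fitted change was -0.32 ± 0.19 on the log2 scale (SE), at an adjusted p of 0.292 in edgeR. It stayed between -0.46 and -0.21 over the alternatives and passed in none of them.

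The order of levels also differed between the groups. In sham, mean FPKM was highest for Srf (46.6), followed by Ier5 (21.0), Ier2 (20.9), Ier3 (15.6), Egr1 (12.6), Nr4a1 (5.99), Nr4a2 (0.80), Egr2 (0.54), Egr3 (0.33) and Nr4a3 (0.23). The samples of neighbours in that order overlapped except between Srf and Ier5, Ier2 and Ier3, and Nr4a1 and Nr4a2. In ischemia, Ier3 came first with a mean FPKM of 98.6, followed by Ier2 (60.03), Ier5 (49.4), Srf (39.5), Egr1 (35.5), Nr4a1 (11.0), Egr2 (4.77), Egr3 (1.86), Nr4a2 (1.16) and Nr4a3 (1.01), and all neighbours overlapped. Among the tested genes, ranked by mean FPKM, Egr2 stood at percentile 4.33 in sham and 40.8 in ischemia, and Ier3 at 72.7 and 94.2.

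The ischemia samples were unequal in the same order for most genes. Relative to the sham mean on scaled CPM, Egr2 was 2.89-fold in ischemia replicate 1, 14.1-fold in replicate 2 and 7.75-fold in replicate 3. For Ier3 the values were 3.27, 10.1 and 3.77, and for Egr1 they were 1.30, 5.26 and 1.12. Ischemia replicate 2 was the highest ischemia sample for 9 of the 10 genes, and replicate 1 was the lowest for 8. The median difference from the sham mean over the 10 genes was 0.79, 2.20 and 1.21 on the log2 scale in ischemia replicates 1 to 3. Summed FPKM of the neutrophil and monocyte markers was 1287, 8662 and 2033 in the same samples, with the same order, and that of the cardiomyocyte markers was 15342, 6152 and 12088, the reverse order. Smooth muscle markers summed to 275.9, 80.6 and 115.4, also the reverse order. Summed endothelial markers (5 genes) were 182.9, 178.1 and 151.2, fibroblast markers 508.7, 244.4 and 209.3, and atrial markers 9610, 2078 and 1279. These followed neither order. Orders over 3 samples are descriptions, and any link to the 10 genes was not tested.

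**Figure D3:**
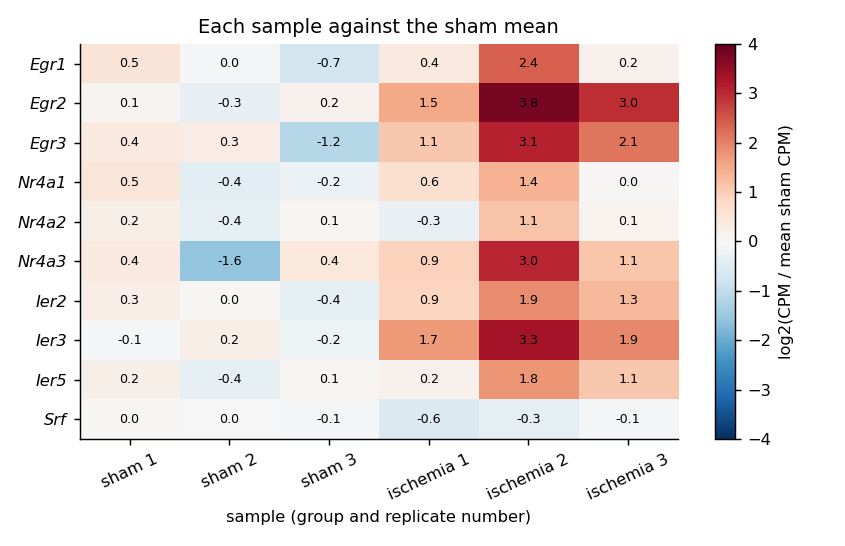
Log2 ratio of scaled CPM to the mean of the sham samples for each gene (rows) and sample (columns), with red above and blue below the sham mean. The column of ischemia replicate 2 holds the highest value in every row except that of Srf, and every row except those of Nr4a2 and Srf is above the sham mean in all ischemia samples.

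Because shares within a family do not depend on library size, the make-up of each family was compared in each sample. Egr1 took 94.6%, 93.6% and 91.1% of summed Egr FPKM in sham and 87.8%, 86.4% and 71.3% in ischemia. Its mean share was 93.1% ± 1.8 (SD, n = 3) in sham against 81.8% ± 9.2 (SD, n = 3) in ischemia, and the shares of Egr2 and Egr3 were higher in every ischemia sample than in every sham sample (exact permutation p 0.1 for each of the 3 genes). Within the Ier genes, Ier3 took 23.5%, 33.1% and 26.6% in sham and 45.7%, 51.8% and 38.6% in ischemia, so that the groups did not overlap, while the share of Ier5 was 36.0% ± 7.3 (SD, n = 3) in sham against 23.9% ± 3.8 (SD, n = 3) in ischemia, also without overlap (exact permutation p 0.1 for both). The make-up of the Nr4a genes overlapped between the groups, with Nr4a1 at 85.1% ± 3.0 (SD, n = 3) in sham against 84.1% ± 4.7 (SD, n = 3) in ischemia (exact permutation p 0.9). Over the 9 shares compared, an exact permutation p of 0.1 is the smallest possible before any correction, so none can pass 0.05.

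**Figure D4:**
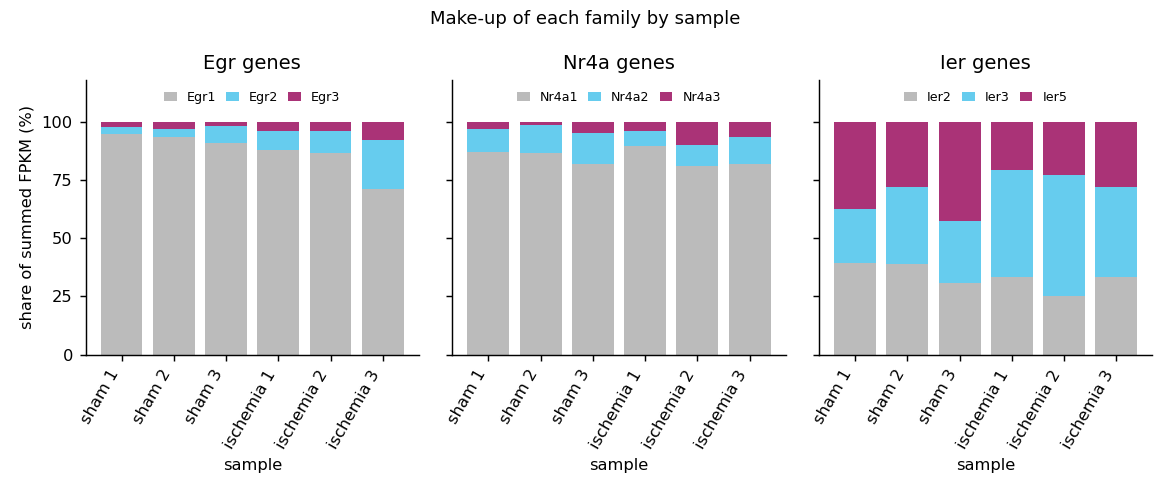
Share of summed FPKM, in percent, that each gene takes within the Egr, Nr4a and Ier genes, as stacked bars for each of the 6 samples. The Egr1 share is lower in each ischemia sample than in any sham sample, the Ier3 share is largest in ischemia, and the Nr4a bars overlap between the groups.

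The genes around these families were taken from lists chosen with earlier results of these data known. Counts over them are descriptions and not support. Of 25 other immediate early genes, 24 were tested, and all 24 had a positive log2 fold change (median 1.73). In edgeR, 9 passed as higher (5.18% of all genes did) and none as lower. All ischemia samples lay above all sham samples for 16 of the 24, against 22% of all genes. Without sham replicate 1, none of the 24 passed in edgeR, as for the whole table, while 6 did without ischemia replicate 2, where 3.31% of all genes were higher. Fosl1, an AP-1 subunit, had a log2 fold change of 4.69 ± 0.87 (SE, edgeR adjusted p 0.0385), and Myc, a growth regulator, 4.29 ± 0.35 (0.0246). Arc and Junb, a synaptic plasticity gene and another AP-1 subunit, rose by 2.71 ± 0.54 and 2.63 ± 0.37 (edgeR adjusted p 0.0441 and 0.0291). Atf3 (2.24) and Fosb (2.22) did not pass, with edgeR adjusted p-values of 0.103 and 0.0865. Egr4, the remaining Egr gene, was below the level for testing, with 26 counts in ischemia replicate 2 and 0 in the other samples, where 0 allows up to 3 counts or 0.0438 CPM at most.

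Partners of the Egr, Nr4a and Srf proteins were also examined. None of 10 tested partner genes was called at an adjusted p under 0.05 by edgeR, where it called 6.71% of all genes. Of the 10, 2 had an unadjusted p under 0.05, where 32.4% of all genes did. DESeq2 called 2, where it called 27.3% of all genes. Nab2, a corepressor that Egr proteins induce and that limits them, had FPKM values of 5.18, 3.20 and 6.78 in sham, against 7.64, 21.6 and 9.09 under ischemia, without overlap. Its log2 fold change was 1.25 ± 0.41 (SE), and edgeR's adjusted p 0.10. Rxrg, a retinoid X receptor of the family that pairs with Nr4a1 and Nr4a2, had a log2 fold change of -2.11 ± 0.81 (SE, edgeR adjusted p 0.134). Of 9 genes for MAPK cascade kinases and CREB (Creb1), edgeR called 0 and DESeq2 2, and 3 had an unadjusted p under 0.05. The shares of all genes were the same 6.71%, 27.3% and 32.4%. The largest values were those of the ribosomal S6 kinases Rps6ka1 (1.99, edgeR adjusted p 0.0575) and Rps6ka3 (1.0, 0.180).

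Known targets were next compared. The list of 11 targets of serum response factor held cytoskeletal and contractile genes and Ccn2. Of these targets, edgeR called 0 (6.71% of all genes) and DESeq2 5 (27.3%), and 5 had an unadjusted p under 0.05 (32.4%). They were divided in sign, with 5 above 0 and a median of -0.62. Myl9, a smooth muscle myosin light chain, had a log2 fold change of -2.49 ± 0.59 (SE, edgeR adjusted p 0.0545) and Acta2, smooth muscle actin, -1.78 ± 0.87 (0.205). The cytoplasmic actins Actb and Actg1, named after their values were seen, went the other way with 1.35 ± 0.33 (SE, edgeR adjusted p 0.0588) and 1.65 ± 0.43 (0.0658). Of the 11 targets, these 2 had all ischemia samples above all sham samples (22% of all genes) and 3, Actc1, Vcl and Myl9, had them all below (19.1% of all genes). Acta2, Tagln and Cnn1 of these targets are also in the list of smooth muscle markers. The summed FPKM of that list ranged from 197.8 to 922.3 in sham and from 80.6 to 275.9 in ischemia. The part of smooth muscle in these values was not tested. Of 8 reported Egr1 targets, 3 were higher and 0 lower in edgeR, where 5.18% and 1.53% of all genes were, with 3 higher without ischemia replicate 2 (3.31% of all genes) and 0 without sham replicate 1 (0 of all genes). Ccl2, a monocyte chemokine, had a log2 fold change of 5.92 ± 0.79 (SE; edgeR adjusted p 0.0278) and Icam1, a leukocyte adhesion molecule, of 1.32 ± 0.27 (0.0450). Tgfb1 (1.49, edgeR adjusted p 0.0703) and Vegfa (0.30, 0.546) did not pass. The sum of the neutrophil and monocyte markers, given above, was higher in the same samples. The part of these markers in the values of these genes was not tested.

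**Figure D5:**
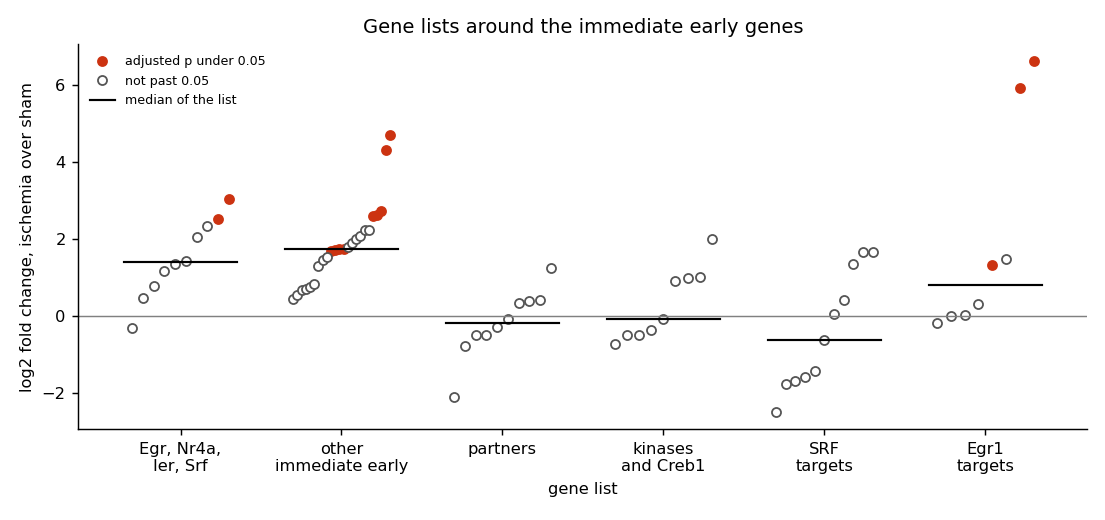
Log2 fold change of ischemia over sham for every tested gene of 6 lists (points, red where the edgeR adjusted p was under 0.05) with the median of each list (line). All 24 other immediate early genes lie above 0. Partners, kinases and targets of serum response factor lie on both sides of it and have no called gene, where edgeR called 6.71% of all genes.

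Finally, the genes whose pattern over the 6 samples was most like that of each member were identified by the root mean square difference of centred log2 CPM, where 0 means the same profile. Egr2 was nearest to Mthfd1l (0.21), a mitochondrial folate enzyme, and Gpr65 (0.22), a proton-sensing receptor. Ier3 was nearest to Il21r (0.16), a cytokine receptor, and Ptgir (0.17), the prostacyclin receptor. The nearest genes were Gabpb2 (0.22) and Zfp455 (0.22) for Egr1, Cyp7b1 (0.096) and G2e3 (0.18) for Nr4a1, and Hpse (0.13) and Pctp (0.13) for Ier2. For Ier5 they were Nufip2 (0.069) and Socs5 (0.080), for Srf Epn2 (0.067) and Plxna1 (0.077), and for Nr4a2 Senp1 (0.060) and Ccdc174 (0.070). Egr3 was nearest to Gm24916 (0.22), a predicted gene, and Apold1 (0.26), and Nr4a3 to Polr3g (0.24) and Mnda (0.28). No member was among the 2 nearest genes of another member, and the closest pair of members was Ier2 and Ier5, at 0.36.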

How the data were processed

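Total RNA of 6 rat myocardium samples had been sequenced from strand-aware libraries. The authors deposited 1 table with raw counts per gene, not normalized, and with FPKM values that the authors had computed from them. The submitters' processing notes name STAR and HTSeq. Their versions and the genome build are not given in the sources used here. Among 11233 genes with at least 100 counts in every sample, the ratio of FPKM to counts followed 1 factor per sample within 1% for 99.97%. Reads of overlapping or near-identical genes could have been lost in counting.

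Testing was limited to genes reaching 0.5 in mean FPKM and was done with the edgeR 4.0.16 quasi-likelihood test of the counts (TMM scaling, no covariates, two-sided, Benjamini-Hochberg over 13964 genes, threshold 0.05). The standard error was derived from the F statistic. Scaled CPM used the same factors, and log2 CPM a prior count of 2. For single values and shares, all regroupings of the samples were enumerated in a two-sided exact permutation test. Alternatives were other scalings and filters, DESeq2 1.42.0, limma 3.58.1 on log2(FPKM + 0.1) and log2(FPKM + 1), the replicate number as a block and each sample left out. The edgeR, limma and DESeq2 steps were tested on simulated data. At the depths given, 3 counts correspond to 0.0377 to 0.0438 CPM, for counting error only.

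The members and gene lists were chosen with earlier results of these data known. The genes named were all members and, of each other list, up to 4 called genes and 2 others with the largest absolute log2 fold change. Genes of like pattern were the 2 nearest per member, and names that begin with LOC, AABR, MGC, ENSRNOG, or RGD, AC or Rn before a number, that contain a point or that hold the pseudogene mark -ps were passed over. Some genes that this rule selects are not reported here. Mrtfb, Ttn, Pecam1 and Col1a2 of the lists were not analysed here, and protein sequences were not used. R 4.3.3, Python 3.11.15 and matplotlib 3.10.9 were used.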

Additional observations from a re-analysis of the deposited data

How the results depend on the processing

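The log2 fold changes of 9 of the 10 genes kept their sign under every alternative fitted, the exception being Nr4a2, which ran from -0.062 (without ischemia replicate 2) to 0.71 when a sample was left out. The median over the 10 genes ranged from 0.85 to 1.64 and moved by less than 1 SD between the ischemia samples. Calls were less stable. The members called higher numbered 2, and 1 with total-count scaling (Ier3; 3.65% of all genes), 6 with DESeq2, 1 with limma on log2(FPKM + 1) (4.7% of all genes) and 0 to 5 when a sample was left out. With DESeq2, 17 other immediate early genes, 2 partners, 5 targets of serum response factor and 2 of the kinases and Creb1 passed, where DESeq2 called 3813 of all 13964 genes (27.3%, and 14.8% as higher) against 937 in edgeR. When a sample was left out, 0 to 15 other immediate early genes, 0 to 2 partners, 0 to 3 targets of serum response factor, 0 to 4 Egr1 targets and 0 to 2 of the kinases and Creb1 passed. The highest of these counts came without ischemia replicate 1, where 2605 genes of the table passed (18.7%, and 10.7% as higher). Targets of serum response factor numbered 2 with a mean FPKM of at least 5 (12.5% of the genes tested there), 2 with limma on log2(FPKM + 0.1) (7.96%) and 1 with limma on log2(FPKM + 1) (6.2%), and 1 of the kinases and Creb1 passed with limma on log2(FPKM + 0.1). No gene of the table passed without sham replicate 1, 2 or 3 or ischemia replicate 3, where 3020 to 3809 genes had an unadjusted p under 0.05. Egr2, Egr3, Nr4a2 and Nr4a3 could not be fitted at a mean FPKM of at least 5. The cause of these changes was not tested.

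With the replicate number as a block, 0 members, 0 other immediate early genes and 0 Egr1 targets passed in edgeR, 0 genes of the table passed and 3349 had an unadjusted p under 0.05. Egr2 was then 2.78 and Ier3 2.33. The labels tie no litter, batch or day to a number. Same-numbered samples had deviations from the group means with a mean correlation of -0.115 (from -0.196 to -0.056). With 3 samples per group, such correlations cannot show whether same-numbered samples share more than a number. No sample correlated best with its own number.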
